A study of Mus musculus with 36 samples.

Results

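The genes of the mitochondrial respiratory chain and ATP synthase were examined across 36 mouse RNA-seq libraries. Members were all protein-coding genes whose symbol in the GRCm38 annotation begins with mt-Nd, mt-Co, mt-Cytb, mt-Atp, Ndufa, Ndufb, Ndufc, Ndufs, Ndufv, Uqcr, Cox4 to Cox8 or Atp5, or with Sdha, Sdhb, Sdhc or Sdhd. This gave 111 of 55401 annotated genes. Of these, 13 lie on the mitochondrial chromosome and 98 in the nucleus. The nuclear members comprised 36 subunits of complex I, 4 of complex II, 8 of complex III, 19 of complex IV and 18 of ATP synthase, with 12 assembly factors that the symbol prefixes also caught and 1 factor that joins complexes III and IV. The rule uses symbols and no measured value, but it was set with earlier results of these data known.

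The 12 groups held 3 libraries each. J2KO cells lack JARID2, a subunit of the PRC2.2 form of Polycomb repressive complex 2, and J2WT cells are their matched wild type. TKO cells have lost all 3 Polycomb-like subunits of PRC2.1 (MTF2, PHF1 and PHF19), QKO cells lack JARID2 in addition, and PclWT cells are the wild type of both. Each of these 5 lines was profiled as naive embryonic stem cells (ESCs) and as epiblast-like cells (EpiLCs). The last pair was Pcgf2/4-null EpiLCs (Pcgf24KO), which lack these subunits of canonical PRC1, and wild-type EpiLCs (WT) whose parent line the labels do not name. All lines are labelled C57BL/6. ESCs grew on gelatin with serum, LIF and inhibitors of GSK3 (3 µM) and MEK (1 µM). EpiLCs were obtained over 2 days on fibronectin with activin A (20 ng/ml) and bFGF (12 ng/ml). Nothing in the labels says that replicates were separate cultures, so p-values measure the spread between libraries, which may be technical.

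The respiratory chain passes electrons from NADH and succinate to oxygen through complexes I to IV and pumps protons, and ATP synthase uses the proton gradient to make ATP. Its core subunits are split between both genomes. The mitochondrial genome encodes parts of complexes I, III and IV and of ATP synthase, and is transcribed by its own polymerase as long precursors that are cut into messenger RNAs, whereas complex II is wholly nuclear. Naive ESCs use both respiration and glycolysis, whereas primed cells rely mainly on glycolysis.

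Only 7 of the 13 mitochondrial members could be counted. mt-Nd1, mt-Nd2, mt-Nd4, mt-Nd5 and mt-Nd6 (complex I), mt-Cytb (complex III) and mt-Co1 (complex IV) were well covered, while the other 6 were almost empty over all 36 libraries. mt-Nd3 held 41 counts, mt-Atp6 held 2, mt-Co2 and mt-Co3 held 1 each, and mt-Atp8 and mt-Nd4l held 0. The files hold only reads that map to 1 place, and chromosome 1 carries a near-identical copy of part of the mitochondrial genome. Of all 75-base stretches, 99.9% in mt-Co3, 99.5% in mt-Atp6 and mt-Co2, 98.7% in mt-Nd4l and 97.8% in mt-Nd3 recur in annotated pseudogenes there, against 61.5% in mt-Nd4 and 39.8% in mt-Co1. For mt-Atp8 no annotated copy was found (0%), so its lack of counts has no measured partner here and is not read as a lack of expression. The annotated copies of mt-Atp6 (chr1:24613974-24614651) and mt-Co2 (chr1:24614885-24615565) leave a gap between them. The sequence of that gap was not compared with mt-Atp8. The values of mt-Nd4 and mt-Co1 therefore rest on part of each gene, and the counts of mt-Co3, mt-Atp6, mt-Co2, mt-Nd4l and mt-Nd3 are no measure of their expression. mt-Nd6 lies on the opposite strand to the other members, and the libraries carry no strand information, so its reads cannot be told apart from antisense ones.

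The copies did not take up reads equally in all lines. The first bases of mt-Nd3 (chrM:9459-9806, plus strand) and of its pseudogene Gm28438 (chr1:24612775-24613119, minus strand) are shown in the GRCm38 annotation's sequence because 1 base separates them, printed in capitals. Counting from the first base of mt-Nd3, the substitution is T3C, and 344 of 345 aligned bases are identical.
mt-Nd3: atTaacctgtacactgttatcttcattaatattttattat
Gm28438: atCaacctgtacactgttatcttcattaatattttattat
In the 18 libraries of the J2WT, J2KO, WT and Pcgf24KO lines, Gm28438 had 84 to 341 counts per library (median 157.5) and mt-Nd3 had 0. In the 18 libraries of the PclWT, TKO and QKO lines, Gm28438 had 0 to 4 counts (median 1) and mt-Nd3 had 0 to 6. The ranges of Gm28438 did not overlap, although all lines carry the same strain label.

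A nuclear member showed the same kind of split. Ndufs5 (chr4:123712710-123718202, minus strand), a small subunit of complex I, has a processed copy, BC002163 (chr16:42955631-42955949, plus strand), that matches it at 317 of 319 aligned bases. The window from aligned base 66 to 120 is shown because it holds both differences, T81C and A105G, in capitals and counted from the first base of BC002163.
Ndufs5: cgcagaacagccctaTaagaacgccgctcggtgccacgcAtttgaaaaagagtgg
BC002163: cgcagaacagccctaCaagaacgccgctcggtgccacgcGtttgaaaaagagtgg
Ndufs5 had 2 to 15 counts (median 8.5) and BC002163 had 107 to 255 (median 186.5) in the J2WT, J2KO, WT and Pcgf24KO libraries. In the PclWT, TKO and QKO libraries Ndufs5 had 65 to 201 counts (median 117.5) and BC002163 had 0 to 10 (median 3). Summed over both genes, the levels were 10.4 to 16.2 CPM (counts per 1e6 counts in genes, here without TMM scaling) in the J2WT, J2KO, WT and Pcgf24KO libraries and 8.28 to 25.5 CPM in the PclWT, TKO and QKO libraries, and these ranges overlapped. Ndufs5 is therefore uncertain in any comparison of lines. It counts among the members tested in both stage comparisons and passed in neither (stage difference of PclWT minus J2WT 0.33, SE 0.56, adjusted p = 0.671). Another 2 tested members share over 50% of their 75-base stretches with overlapping or copied genes and are uncertain too, Sdhaf1 (68.7%) and Ndufaf2 (63.2%). That share does not bound the loss of reads, since for Ndufs5 it was only 15.7%. In all 44 nuclear members share at least 1 such stretch, among them Atp5g2 (35.8%), and how many reads they lose was not tested.

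Libraries held 6784578 to 18026492 counts in genes. Mitochondrial members took 0.914% to 2.48% of them and nuclear members 0.973% to 1.63%. Replicate 1 of PclWT EpiLCs stood apart. Its nuclear members took 1.63% of counts, against 1% and 0.979% in the other PclWT EpiLC libraries, and ribosomal RNA genes took 1.4%, against 0.406% and 0.372%. The counts of passing members that use PclWT EpiLCs are therefore given with and without it. Ribosomal RNA genes took the highest share of all in replicate 2 of QKO EpiLCs, 4.28%, against 0.488% and 0.424% in the other QKO EpiLC libraries. Mtf2, deleted in both mutants, had a median CPM of 44.8 in TKO ESCs and 38.8 in QKO ESCs, against 418 in PclWT ESCs. Jarid2 and Pcgf2 are counted over the whole gene, which checks nothing about a partial deletion, and stayed near wild-type levels (Jarid2 411 CPM in J2KO ESCs and 460 CPM in J2WT ESCs). Klf4, a marker of naive cells, had a median of 7.31 CPM in PclWT EpiLCs and 347 CPM in PclWT ESCs. Fgf5, an EpiLC marker, reached 58.7 CPM in J2WT EpiLCs but only 0.921 CPM in PclWT, 3.81 CPM in TKO and 1.71 CPM in QKO EpiLCs. Fgf5 is the only EpiLC marker given here, and alone it does not settle how far these lines had reached the EpiLC state. All 5 fibroblast markers stayed at or under 13.4 CPM in every library, Col3a1 and Postn at or under 0.323 CPM.

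Scaled by the length of all annotated exons of a gene, the 7 counted mitochondrial messages were the most abundant members in J2WT and PclWT ESCs. This length can exceed that of a single message, which lowers the scaled value, so the ranks depend in part on it. In J2WT EpiLCs Atp5b (544 ± 13.2 RPKM) and Atp5a1 (459 ± 7.3 RPKM) ranked above mt-Nd4 (419 ± 55.6 RPKM). In J2WT ESCs the mean RPKM (CPM per kilobase of annotated exons) was 4855 ± 423 for mt-Co1 (SD, n = 3) and 3243 ± 221 for mt-Nd1. It was 1458 ± 137 for mt-Cytb and 1353 ± 129 for mt-Nd2. mt-Nd6 (1204 ± 129) and mt-Nd5 (1170 ± 138) followed and differed by less than their spread, as did mt-Cytb and mt-Nd2. mt-Nd4 had 659 ± 70.3 RPKM, with the caution that much of it cannot be counted. The highest nuclear members were Atp5b (569 ± 14.1) and Atp5a1 (423 ± 6.38), the catalytic beta subunit and the alpha subunit of ATP synthase.

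The comparison of EpiLCs with ESCs in wild-type cells asked how the chain changes as naive cells move toward the primed state. Both wild-type lines were fitted together, with the line as a covariate, and all p-values are from edgeR's quasi-likelihood test with Benjamini-Hochberg adjustment. Among the mitochondrial members, mt-Co1, the catalytic core of complex IV, fell by 0.73 on the log2 scale in EpiLCs (SE 0.13, adjusted p = 6.6e-04), and by 0.69 without replicate 1 of PclWT EpiLCs. mt-Co1 had 3591, 4111 and 3241 CPM in J2WT EpiLCs, against 7958, 6753 and 7792 CPM in J2WT ESCs. In the other line it had 4427, 5507 and 5978 CPM in PclWT EpiLCs, against 6315, 7453 and 7378 CPM in PclWT ESCs. All EpiLC libraries lay below the ESC libraries of their line. In bulk libraries fewer cells of a type and less RNA per cell cannot be told apart. mt-Nd5 fell by 0.62 (SE 0.14, adjusted p = 0.00235) and mt-Nd6 by 0.56 (SE 0.19, adjusted p = 0.0265), while the log2 fold change of mt-Cytb was 0.36 (SE 0.17, adjusted p = 0.106). For mt-Nd5 and mt-Nd6 the stages did not overlap in J2WT cells but did in PclWT cells. There mt-Nd6 had 691, 386 and 441 CPM in EpiLCs, against 503, 570 and 512 CPM in ESCs. mt-Nd5 had 1185, 1620 and 1798 CPM in PclWT EpiLCs, against 1658, 2196 and 2105 CPM in PclWT ESCs.

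Of 100 members tested, 2 rose and 18 fell, where 51.7% of all genes passed in either direction. Fitted alone, J2WT gave 75 passing members and PclWT 5. The shares of all genes that passed in these single-line fits are not given here, so the counts do not set the members apart from other genes. PclWT EpiLCs had little of the EpiLC marker Fgf5 (0.921 CPM, against 58.7 CPM in J2WT EpiLCs), and its part in the result was not tested. The median log2 fold change of the members was -0.13, against -0.02 over all genes. Cox5a, a matrix-side subunit of complex IV, fell by 0.80 (SE 0.13, adjusted p = 2.9e-04), with 108, 106 and 110 CPM in J2WT EpiLCs, against 183, 191 and 205 CPM in J2WT ESCs. It had 142, 78.1 and 79.4 CPM in PclWT EpiLCs, against 182, 158 and 162 CPM in PclWT ESCs. The groups did not overlap in either line, and replicate 1 of PclWT EpiLCs was the highest EpiLC library. Sdha, the flavoprotein that oxidises succinate in complex II, fell by 0.26 (SE 0.05, adjusted p = 0.00177; 0.24 without replicate 1 of PclWT EpiLCs), Sdhaf2, which attaches its flavin, by 0.20, and the core complex III subunit Uqcrc2 by 0.18. Atp5g1, 1 of the genes for the membrane ring subunit c of ATP synthase, fell by 0.49. The members that rose were Ndufaf8, a complex I assembly factor (log2 fold change 0.49, adjusted p = 0.0302), and Ndufa4l2, described with the paralogs.

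Without replicate 1 of PclWT EpiLCs, 2 members rose and 67 fell, where 62.7% of all genes passed, and the members' median was -0.28 against -0.01 over all genes. The falls then covered 25 of 36 tested subunits of complex I, 3 of 4 of complex II, 6 of 8 of complex III, 11 of 15 of complex IV and 12 of 17 of ATP synthase. Of the mitochondrial members 4 fell, and the log2 fold change of mt-Cytb was 0.31.

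The lines differed in how their mitochondrial messages changed between stages. The stage effect of PclWT minus that of J2WT passed for 13 members, 11 higher and 2 lower, where 42.8% of all genes passed. mt-Cytb, the cytochrome b of complex III, gave a difference of 0.98 (SE 0.18, adjusted p = 0.0012). It had 4156, 3635 and 4020 CPM in PclWT EpiLCs, against 1773, 2432 and 2293 CPM in PclWT ESCs, without overlap. In J2WT EpiLCs it had 1531, 1695 and 1320 CPM, against 1789, 1490 and 1725 CPM in J2WT ESCs, where the groups overlapped. The differences were 0.94 for mt-Nd4, 0.95 for mt-Nd6 and 0.61 for mt-Co1 (adjusted p = 0.00613, 0.011 and 0.0205). Without replicate 1 of PclWT EpiLCs all 7 mitochondrial members passed in the same direction, with differences of 0.22 to 0.95, and 65% of all genes passed. In that fit 10 nuclear members were higher and 35 lower, and the members' median was -0.09.

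Loss of JARID2 in ESCs came with higher mitochondrial messages. Of the 7 counted mitochondrial members 6 rose, led by mt-Cytb with a log2 fold change of 1.08 (SE 0.05, adjusted p = 3.1e-14). mt-Cytb had 3569, 3486 and 3421 CPM in J2KO ESCs, against 1789, 1490 and 1725 CPM in J2WT ESCs, a clear gap between the groups. mt-Nd4, a proton-pumping subunit of complex I, rose by 0.81 (SE 0.05, adjusted p = 8.2e-12) and mt-Co1 by 0.70 (SE 0.04, adjusted p = 9.4e-12). mt-Co1 had 12308, 12235 and 11876 CPM in J2KO ESCs, against 7958, 6753 and 7792 CPM in J2WT ESCs, again without overlap. mt-Nd1, mt-Nd5 and mt-Nd2 rose by 0.34, 0.30 and 0.26, and mt-Nd6 had a log2 fold change of 0.08 (SE 0.06, adjusted p = 0.245).

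The nuclear members moved both ways in J2KO ESCs, 26 up and 41 down of 92 tested. Counting both genomes, 73 of 99 members passed, close to the 70.9% of all genes. Both catalytic subunits of complex II rose. Sdha had 457, 459 and 460 CPM in J2KO ESCs, against 326, 330 and 330 CPM in J2WT ESCs (log2 fold change 0.49, SE 0.03, adjusted p = 1.1e-11), and the iron-sulphur subunit Sdhb rose by 0.45. Sdhc and Sdhd, its membrane anchors, fell by 0.22 and 0.20. In complex IV 10 of 15 subunits fell and 2 rose. In complex III Uqcrh, a small acidic subunit, fell by 0.67 (SE 0.05, adjusted p = 5.8e-10). In complex I, where 13 subunits rose and 12 fell, Ndufa2 fell by 0.74 (SE 0.06, adjusted p = 7.4e-10). Ndufaf7, a methyltransferase of complex I assembly, fell by 0.91. Its level was 11.3, 11.8 and 12.3 CPM in J2KO ESCs, against 20.2, 23 and 23.6 CPM in J2WT ESCs. The small ATP synthase protein Atp5mpl fell by 0.94 (SE 0.06, adjusted p = 5.0e-12), while Atp5g1 rose by 0.58.

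In EpiLCs the same genotype contrast gave smaller mitochondrial differences in both directions. mt-Co1 rose by 0.34 (SE 0.05, adjusted p = 1.3e-06), mt-Nd4 by 0.24 and mt-Cytb by 0.22, while mt-Nd1 fell by 0.19 and mt-Nd2 by 0.13. mt-Cytb had 1874, 1812 and 1523 CPM in J2KO EpiLCs, against 1531, 1695 and 1320 CPM in J2WT EpiLCs, and the groups overlapped. Of 99 members 19 rose and 40 fell, where 65.2% of all genes passed. In complex IV 9 of 15 subunits fell, among them Cox4i1 (fell by 0.42, adjusted p = 9.5e-13). Uqcr10 and Uqcrq, small subunits of complex III, rose by 0.55 and 0.43, and Atp5h, in the peripheral stalk of ATP synthase, rose by 0.53. Uqcr10 had 134, 127 and 139 CPM in J2KO EpiLCs, against 90, 92.8 and 94.1 CPM in J2WT EpiLCs.

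The J2KO effect in EpiLCs minus that in ESCs passed for 53 of 99 members, 20 higher and 33 lower, where 54.1% of all genes passed. The 33 lower ones included 6 of the 7 mitochondrial members. The difference was -0.88 for mt-Cytb (SE 0.09, adjusted p = 1.2e-09), -0.60 for mt-Nd4 and -0.56 for mt-Nd1.

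TKO and QKO ESCs were compared with the same PclWT libraries, and few of the mitochondrial members passed. In TKO ESCs mt-Nd5 and mt-Nd6 rose by 0.19 and 0.18, and in QKO ESCs mt-Nd2 fell by 0.41 (SE 0.12, adjusted p = 0.00617). mt-Cytb had 1976, 2051 and 2411 CPM in TKO and 2212, 1509 and 1711 CPM in QKO ESCs, against 1773, 2432 and 2293 CPM in PclWT ESCs, with overlap in both comparisons. The lowest QKO library was replicate 2, in which ribosomal RNA genes took 2.09% of counts, against 0.815% and 0.461% in the others. The part of that share in the result was not tested. Among all members 30 rose and 24 fell of 98 in TKO ESCs, where 66.7% of all genes passed, and 43 rose and 16 fell of 98 in QKO ESCs, where 69.9% did.

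The nuclear role with the lowest median in both lines was the assembly factors of complexes I and II, proteins that help build a complex and are not part of it. The median was -0.45 in TKO and -0.40 in QKO ESCs. In TKO ESCs 8 of 12 tested assembly factors fell and 2 rose, where 66.7% of all genes passed. In QKO ESCs 7 fell and 3 rose, where 69.9% did. Ndufaf1 had 26.6, 25 and 25.8 CPM in TKO and 28, 33.5 and 24 CPM in QKO ESCs, against 68.6, 62.1 and 65.3 CPM in PclWT ESCs. The mutant libraries all lay below the wild-type ones, with log2 fold changes of -1.37 in TKO (SE 0.07, adjusted p = 8.5e-12) and -1.20 in QKO (SE 0.09, adjusted p = 3.5e-09). The level of Ndufaf1 in J2WT ESCs, 31.4, 29.9 and 30.5 CPM, lay near the mutant levels. Ndufaf7 fell by 0.85 in TKO and 0.94 in QKO ESCs, Ndufaf4 by 0.87 and 0.88, and Ndufaf8 by 1.01 and 0.46. Ndufaf2, whose reads are shared with an overlapping gene, fell by 0.79 and 0.54.

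**Figure D1:**
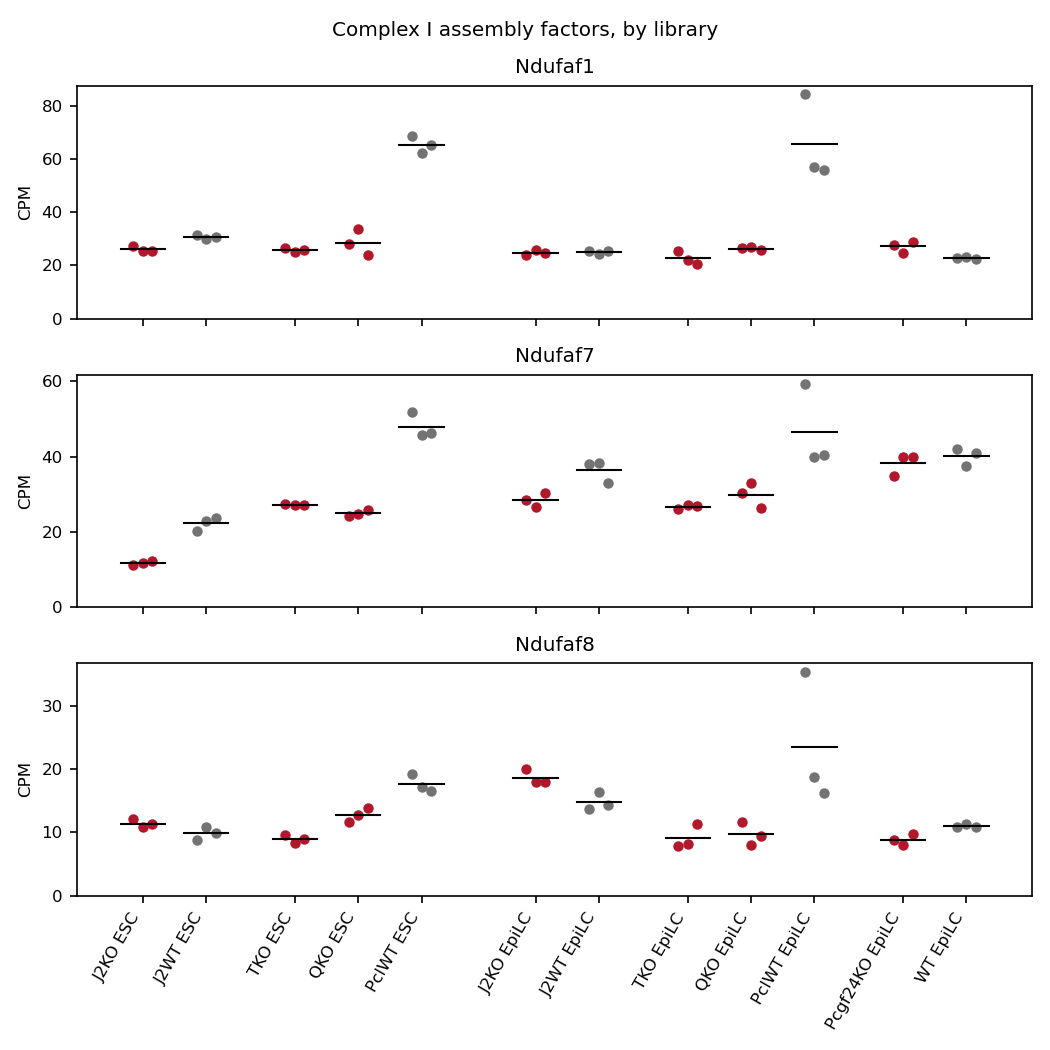
CPM of the complex I assembly factors Ndufaf1, Ndufaf7 and Ndufaf8 in every library, with mutants in red, wild types in grey and a line at each mean (n = 3). For Ndufaf1 the TKO and QKO ESC libraries sit between 24 and 33.5 CPM and the PclWT ESC libraries between 62.1 and 68.6 CPM, with J2WT ESCs at 29.9 to 31.4 CPM.

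Of 78 tested nuclear subunits, 26 rose and 16 fell in TKO ESCs, and 40 rose and 8 fell in QKO ESCs. Among all genes 66.7% and 69.9% passed in these comparisons. Ndufs1, the largest core subunit of complex I, rose by 0.53 and 0.68, Sdhc by 0.57 and 0.77, and Cox5b, a zinc-binding subunit of complex IV, by 0.66 and 0.79. Uqcr10 fell by 0.85 and 0.57, and Uqcrq by 0.74 and 0.80. Uqcr10 had 105, 94.2 and 93.6 CPM in TKO and 112, 112 and 123 CPM in QKO ESCs, against 186, 160 and 171 CPM in PclWT ESCs.

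In EpiLCs the mitochondrial messages were lower in TKO and QKO cells than in PclWT cells. Of the 7 counted genes 6 fell in each mutant, where 33.5% of all genes passed in TKO and 32.7% in QKO EpiLCs. The member calls were not all stable. Leaving out 1 mutant library left 5, 5 or 6 passing members of both genomes in TKO EpiLCs and 5, 5 or 7 in QKO EpiLCs. Each time these included mt-Nd2, mt-Nd4, mt-Cytb and Ndufaf1. The shares of all genes in those fits are not given here. mt-Cytb had 1892, 1828 and 1666 CPM in TKO EpiLCs and 1535, 1628 and 1846 CPM in QKO EpiLCs, against 4156, 3635 and 4020 CPM in PclWT EpiLCs. Every mutant library lay below every wild-type library, with log2 fold changes of -1.17 in TKO (SE 0.13, adjusted p = 0.00107) and -1.25 in QKO (SE 0.13, adjusted p = 8.8e-04). mt-Nd1 fell by 0.94 in TKO and 0.75 in QKO EpiLCs, mt-Nd4 by 0.91 and 1.08, mt-Nd6 by 0.93 and 0.83, and mt-Co1 by 0.48 and 0.49. mt-Nd5 had log2 fold changes of -0.40 and -0.45 (adjusted p = 0.11 and 0.0868). Without replicate 1 of PclWT EpiLCs all 7 fell in both mutants, mt-Nd5 by 0.53 and 0.62 and mt-Cytb by 1.11 and 1.22. In each of these fits 66.4% of all genes passed. The PclWT EpiLC level of mt-Cytb was also above that in J2WT EpiLCs (1531, 1695 and 1320 CPM) and WT EpiLCs (2099, 2387 and 2241 CPM). The EpiLC marker Fgf5 was low in all 3 lines, and its part in the result was not tested.

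**Figure D2:**
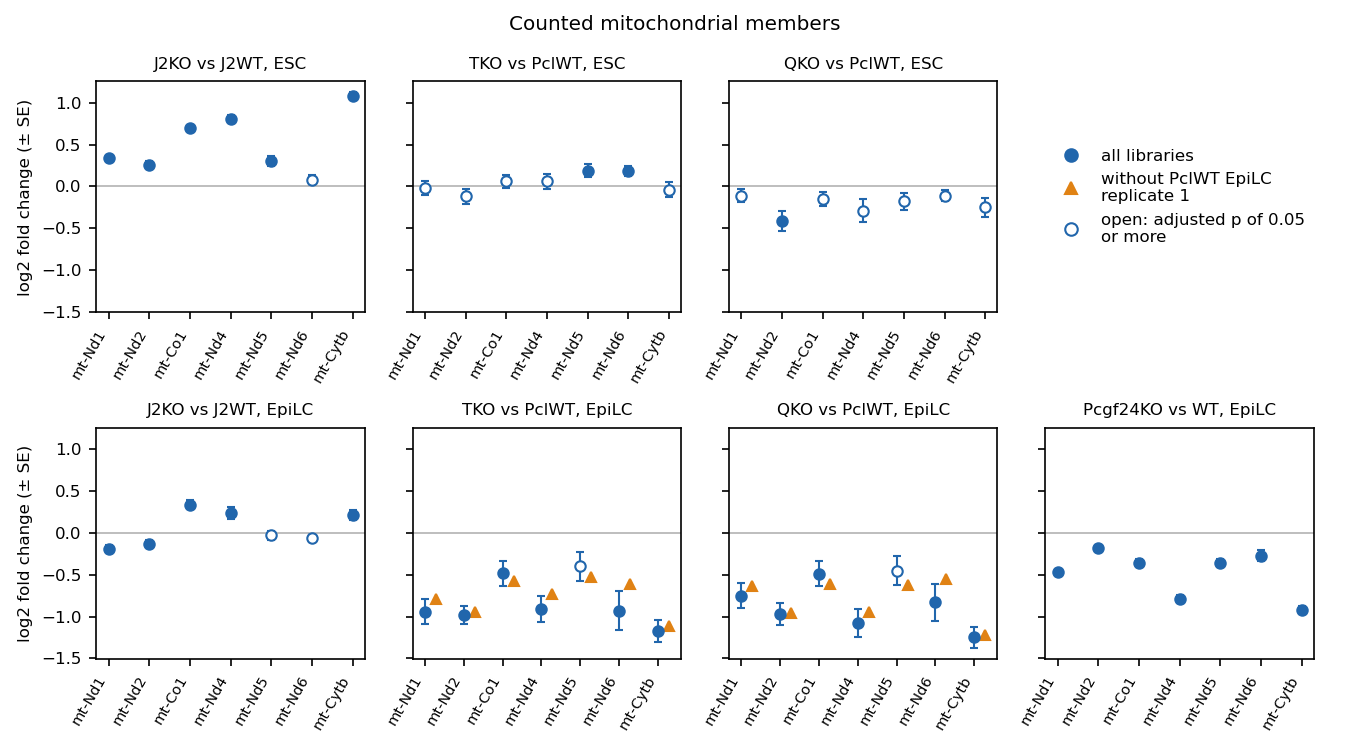
Log2 fold change with its SE for the 7 counted mitochondrial members in each genotype comparison, from edgeR fits. Orange triangles give the TKO and QKO EpiLC fits without replicate 1 of PclWT EpiLCs, and mt-Cytb has the largest shift in J2KO ESCs (1.08) and in TKO, QKO and Pcgf24KO EpiLCs (-1.17, -1.25 and -0.92).

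For the nuclear members this comparison depended on a single library. With all libraries 1 of 91 nuclear members rose and 9 fell in TKO EpiLCs (median -0.44), and 2 of 92 rose and 6 fell in QKO EpiLCs (median -0.27). Counting all members, 16 of 98 and 14 of 99 passed, where 33.5% and 32.7% of all genes did. Without replicate 1 of PclWT EpiLCs 24 nuclear members rose and 26 fell in TKO EpiLCs (median 0.02), and 39 rose and 15 fell in QKO EpiLCs (median 0.14), where 66.4% of all genes passed in each comparison. Complex IV then had 10 of 14 subunits higher in QKO EpiLCs. Ndufaf1 fell in both fits. It had 25.2, 22.1 and 20.4 CPM in TKO EpiLCs and 26.5, 26.7 and 25.7 CPM in QKO EpiLCs, against 84.2, 56.9 and 56 CPM in PclWT EpiLCs, with no overlap. Its log2 fold changes were -1.58 and -1.33 with all libraries and -1.32 and -1.13 without that replicate. Ndufaf8, Ndufaf7, Ndufaf2 and Uqcr10 also fell in both mutants with and without it. Uqcrfs1, the Rieske iron-sulphur protein of complex III, fell in TKO EpiLCs (fell by 0.84, adjusted p = 0.0252, or by 0.53 without that replicate) and Ndufab1, the mitochondrial acyl carrier protein, in QKO EpiLCs (fell by 0.72, adjusted p = 0.0476, or by 0.43 without it). Ndufs1 rose in both, by 0.45 and 0.90 (adjusted p = 0.0116 and 9.8e-04), or by 0.46 and 0.88 without it.

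The TKO effect in EpiLCs minus that in ESCs passed for 5 of 98 members, all mitochondrial and all lower, where 15.3% of all genes passed. The difference was -1.13 for mt-Cytb (SE 0.17, adjusted p = 0.00113) and -1.11 for mt-Nd6 (SE 0.24, adjusted p = 0.00868). The QKO effect differed for mt-Cytb alone, by -0.96 (SE 0.22, adjusted p = 0.0101), where 16.2% of all genes passed. Without replicate 1 of PclWT EpiLCs all 7 mitochondrial members passed as lower in both, with medians of -0.80 for TKO and -0.52 for QKO. In those fits 6 nuclear members were higher and 7 lower for TKO, where 35.5% of all genes passed, and 10 were higher and 2 lower for QKO, where 37% did.

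In EpiLCs without PCGF2 and PCGF4 all 7 counted mitochondrial members fell. mt-Cytb had 997, 1220 and 1286 CPM in Pcgf24KO EpiLCs, against 2099, 2387 and 2241 CPM in WT EpiLCs, and fell by 0.92 (SE 0.05, adjusted p = 1.4e-18). mt-Nd4 fell by 0.79, mt-Nd1 by 0.47, mt-Nd5 and mt-Co1 by 0.36, mt-Nd6 by 0.27 and mt-Nd2 by 0.18. Of these, mt-Nd6 overlapped between the groups, with 416, 519 and 414 CPM in Pcgf24KO EpiLCs, against 498, 607 and 549 CPM in WT EpiLCs.

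Of 93 nuclear members 41 rose and 4 fell in Pcgf24KO EpiLCs, with a median of 0.11 against 0.01 over all genes. Together with the mitochondrial members 52 of 100 passed, a share below the 56.9% of all genes, and the other 48 nuclear members did not pass. All 4 subunits of complex II rose, with a median of 0.25. Sdhc had 135, 136 and 132 CPM in Pcgf24KO EpiLCs, against 103, 111 and 109 CPM in WT EpiLCs. Complex I had 15 of 35 subunits higher and 1 lower, including Ndufa6 (0.52) and Ndufb10 (0.51). Atp5f1, the stalk subunit b of ATP synthase, had 317, 312 and 313 CPM in Pcgf24KO EpiLCs, against 209, 198 and 218 CPM in WT EpiLCs, and rose by 0.62 (SE 0.04, adjusted p = 2.6e-17). The wild-type libraries did not reach the mutant ones for either gene.

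**Figure D3:**
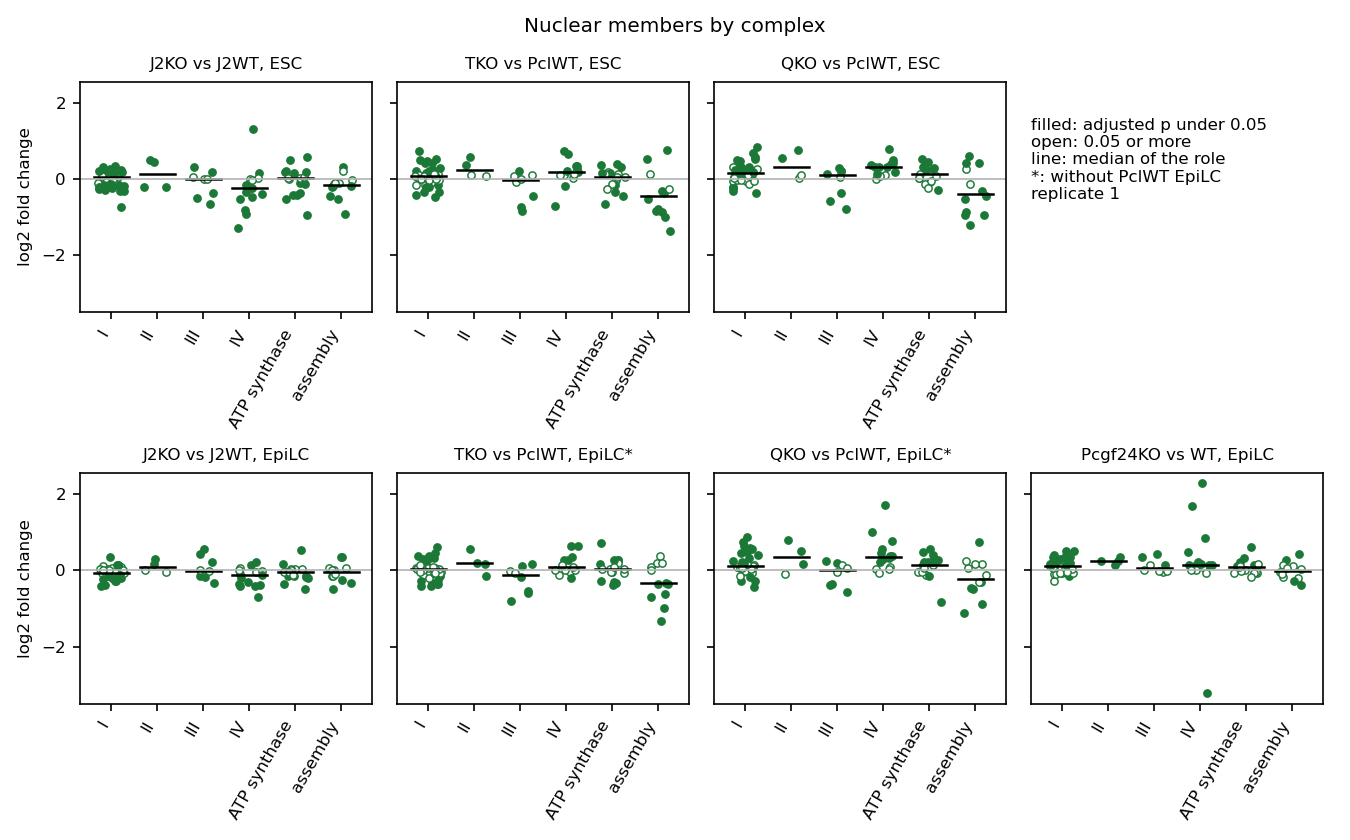
Log2 fold change of each tested nuclear member by complex in each genotype comparison, with filled points for adjusted p under 0.05 and a line at the median of each role. Panels with an asterisk leave out replicate 1 of PclWT EpiLCs, and assembly factors have the lowest role median in TKO ESCs (-0.45) and QKO ESCs (-0.40).

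The ratio of summed mitochondrial to summed nuclear member counts sets both genomes side by side within each library, with no scaling between libraries. As a log2 value it was 0.98 ± 0.05 in J2KO ESCs and 0.42 ± 0.16 in J2WT ESCs (SD, n = 3 each). J2KO ESC libraries lay between 0.93 and 1.02, all above J2WT ESC libraries at 0.27 to 0.58. The ratio was 0.58 ± 0.22 in TKO ESCs and 0.25 ± 0.27 in QKO ESCs, against 0.65 ± 0.24 in PclWT ESCs, with overlapping libraries. In EpiLCs it was 0.11 ± 0.14 for J2KO and -0.06 ± 0.18 for J2WT, a difference of 0.17 that is close to the pooled SD of 0.16. It was 0.18 ± 0.12 in TKO EpiLCs and 0.04 ± 0.15 in QKO EpiLCs, against 0.77 ± 0.44 in PclWT EpiLCs. The PclWT EpiLC libraries had values of 0.28, 0.93 and 1.11, and replicate 1 at 0.28 reached the highest TKO library, also at 0.28. Without it the ratio difference was -0.84 for TKO and -0.98 for QKO, against -0.59 and -0.73 with it. The ratio was 0.25 ± 0.20 in Pcgf24KO EpiLCs and 0.78 ± 0.14 in WT EpiLCs, and no library overlapped. Between stages the ratio was lower in EpiLCs than in ESCs in J2KO cells (difference -0.88), J2WT cells (-0.48) and TKO cells (-0.40). In QKO cells the difference of -0.21 equalled the pooled SD of 0.21, and in PclWT cells it was 0.12, within a pooled SD of 0.35. There replicate 1 of the EpiLCs (0.28) lay below all ESC libraries (0.37 to 0.82) and the other EpiLC libraries above them. With 3 libraries a group an exact permutation test cannot reach 0.05, so none is given for these ratios.

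The balance within the mitochondrial messages also differed between stages. The ratio of mt-Cytb to mt-Co1 counts, taken within each library, was higher in EpiLCs than in ESCs in all 5 lines. It was 0.38 ± 0.0148 in J2KO EpiLCs and 0.288 ± 0.00253 in J2KO ESCs (SD, n = 3 each), and 0.415 ± 0.00985 in J2WT EpiLCs and 0.222 ± 0.00221 in J2WT ESCs. It was 0.459 ± 0.0119 in TKO EpiLCs and 0.287 ± 0.00801 in TKO ESCs, and 0.436 ± 0.012 in QKO EpiLCs and 0.285 ± 0.013 in QKO ESCs. PclWT EpiLCs had the highest ratios, 0.939, 0.66 and 0.673, against 0.281, 0.326 and 0.311 in PclWT ESCs. No EpiLC library of any line reached down to its ESC libraries. The ratio was 0.192 ± 0.00779 in Pcgf24KO EpiLCs and 0.283 ± 0.00314 in WT EpiLCs, and WT EpiLCs were below J2WT and PclWT EpiLCs. Part of mt-Co1 is uncounted in every library because of its chromosome 1 copy, so the ratio is relative and not a ratio of molecules.

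**Figure D4:**
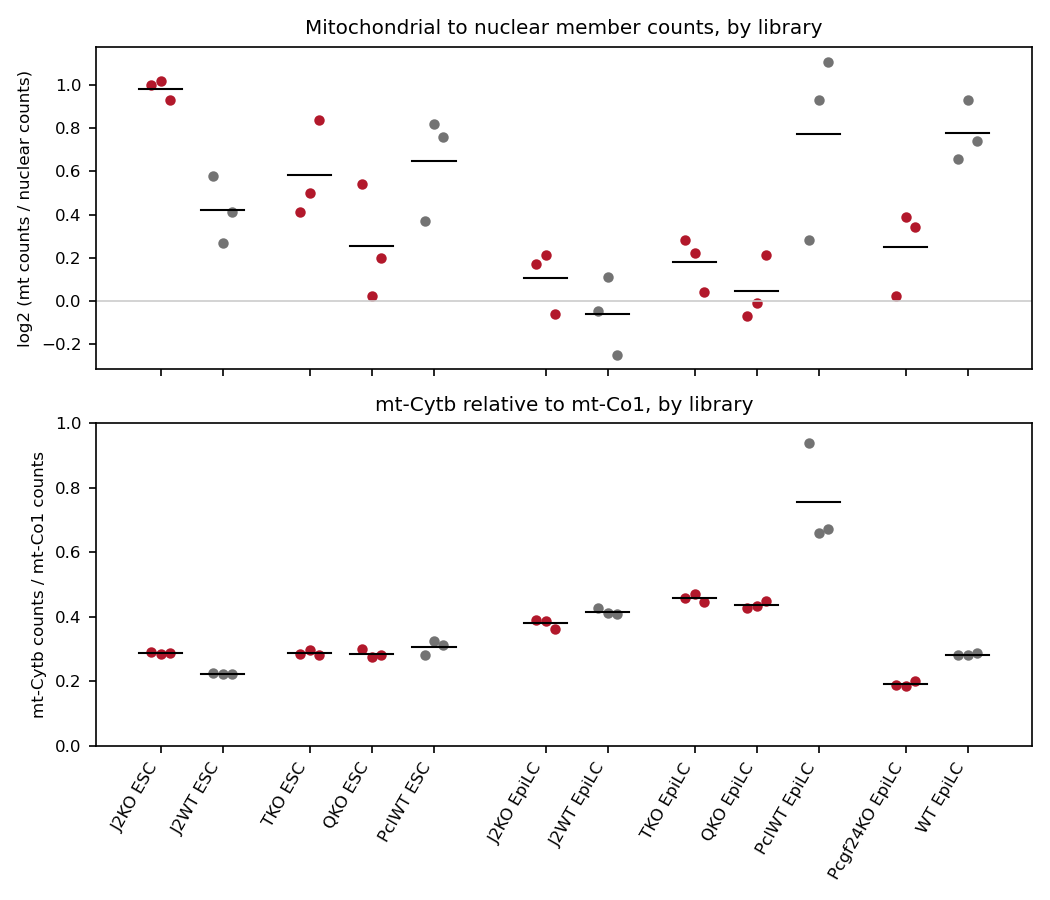
Log2 ratio of mitochondrial to nuclear member counts (upper panel) and ratio of mt-Cytb to mt-Co1 counts (lower panel) in every library, with mutants in red, wild types in grey and a line at each mean (n = 3). J2KO ESC libraries (0.93 to 1.02) lie above J2WT ESC libraries (0.27 to 0.58), and the mt-Cytb to mt-Co1 ratio is highest in PclWT EpiLCs (0.66 to 0.939).

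Several subunits of complex IV exist as paralogs with restricted tissue use, and in Pcgf24KO EpiLCs Cox7b2, Cox4i2 and Ndufa4l2 had the largest changes of all tested members. Ndufa4l2, a hypoxia-induced relative of the complex IV subunit Ndufa4, had 82, 75.5 and 64.3 CPM in Pcgf24KO EpiLCs, against 24.4, 23.4 and 22.7 CPM in WT EpiLCs (log2 fold change 1.68, SE 0.07, adjusted p = 1.4e-22). It had 6.24, 5.64 and 7.7 CPM in J2KO ESCs, against 2.55, 2.51 and 2.83 CPM in J2WT ESCs (1.31, adjusted p = 1.8e-07), and the groups were apart in both comparisons. Between stages it rose by 2.28 in wild-type EpiLCs (SE 0.20, adjusted p = 1.5e-06), with the same value without replicate 1 of PclWT EpiLCs, although its level in PclWT EpiLCs was only 1.23 to 1.9 CPM. Ndufa4 itself had 150, 141 and 139 CPM in Pcgf24KO EpiLCs, against 150, 136 and 148 CPM in WT EpiLCs.

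Cox7b2, a testis-enriched relative of Cox7b, nearly disappeared without PCGF2 and PCGF4. It had 13, 11 and 16 counts in Pcgf24KO EpiLCs, against 130, 128 and 125 counts in WT EpiLCs, a log2 fold change of -3.22 (SE 0.18, adjusted p = 1.3e-18). It fell by 0.92 in J2KO ESCs and its log2 fold change in J2KO EpiLCs was 0.01 (adjusted p = 0.922). In the PclWT, TKO and QKO lines it had at most 19 counts in any library and was not tested in the genotype comparisons. Cox7b had 128, 118 and 118 CPM in Pcgf24KO EpiLCs, against 115, 104 and 116 CPM in WT EpiLCs, and rose by 0.14.

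Cox6b2, another testis-enriched isoform, had 26.8, 25.2 and 28.4 CPM in J2KO ESCs, against 60, 66.3 and 70.2 CPM in J2WT ESCs, and fell by 1.28 (SE 0.06, adjusted p = 2.6e-13). It fell by 0.70 in J2KO EpiLCs, and it rose by 0.72 in TKO ESCs, 0.30 in QKO ESCs and 0.48 in Pcgf24KO EpiLCs. Its common relative Cox6b1 fell by 0.47 and 0.40 in J2KO ESCs and EpiLCs and rose by 0.33, 0.41 and 0.16 in TKO ESCs, QKO ESCs and Pcgf24KO EpiLCs. In the TKO and QKO EpiLC comparisons neither gene passed and their signs were opposite, with log2 fold changes of 0.15 and 0.09 for Cox6b2 and -0.25 and -0.11 for Cox6b1. Cox4i2, the hypoxia-linked form of Cox4i1, had 32, 28 and 27 counts in Pcgf24KO EpiLCs, against 6, 4 and 8 counts in WT EpiLCs (log2 fold change 2.28, adjusted p = 7.7e-08), while Cox4i1 had a log2 fold change of 0.05 (adjusted p = 0.335). Cox7a1, the muscle form, rose by 0.85 in Pcgf24KO EpiLCs and fell by 0.82 in J2KO ESCs, 0.71 in TKO ESCs and 1.44 between stages. In QKO ESCs it rose by 0.32 (adjusted p = 0.0297), with overlapping groups. The muscle genes Cox6a2 (157 counts over all 36 libraries) and Cox8b (1 count) and a second Atp5o entry (0 counts) were tested in no comparison, and neither were the 6 empty mitochondrial genes. The testis-linked Cox8c (198 counts) was tested only in QKO EpiLCs, and in all 102 members were tested at least once.

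**Figure D5:**
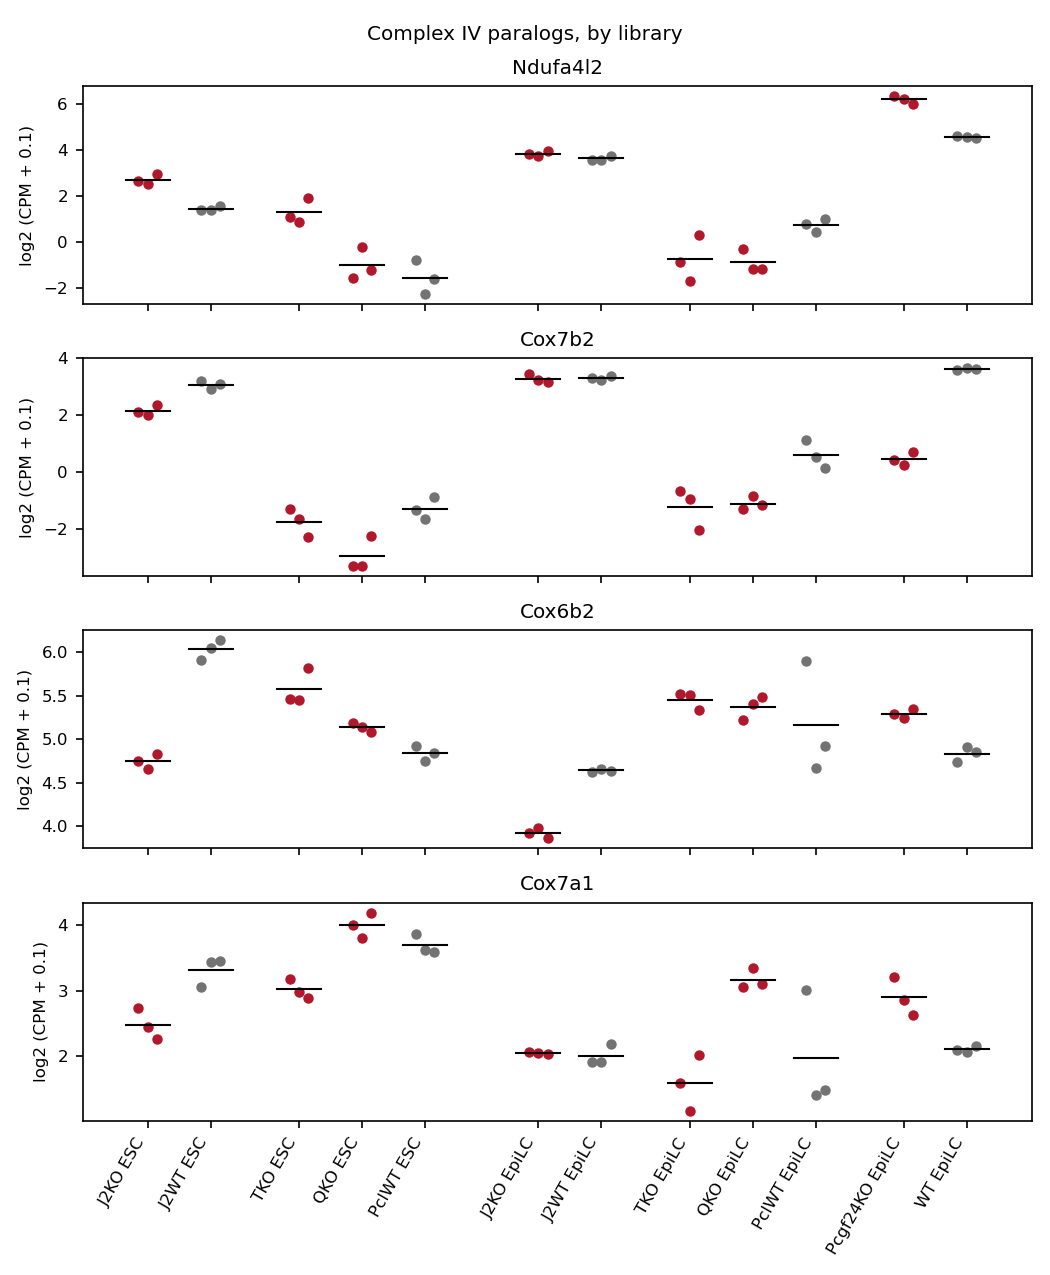
Log2 of CPM plus 0.1 for the complex IV paralogs in every library, with mutants in red, wild types in grey and a line at the mean of the log2 values (n = 3). Ndufa4l2 is highest in Pcgf24KO EpiLCs (64.3 to 82 CPM) and Cox7b2 is lowest among the EpiLC groups in the TKO and QKO lines, while Pcgf24KO EpiLCs (1.07 to 1.54 CPM) lie below WT EpiLCs (12 to 12.5 CPM).

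For subunit c of ATP synthase, Atp5g1 rose by 0.58 in J2KO ESCs and fell by 0.65 in TKO ESCs and 0.28 in QKO ESCs. Atp5g2 rose by 0.36 and 0.43 in TKO and QKO ESCs and by 0.32 in Pcgf24KO EpiLCs, where the log2 fold change of Atp5g1 was -0.03 (adjusted p = 0.616). Atp5g2 shares 35.8% of its 75-base stretches with other genes, so its values rest on part of the gene. Atp5g3 rose in QKO ESCs by 0.24 and had a log2 fold change of 0.14 (adjusted p = 0.071) in TKO ESCs.

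Genes that act around the chain were counted in lists. Of the mitochondrial ribosomal proteins, which translate the mitochondrial messages, 8 rose and 46 fell of 77 in TKO ESCs, and 18 rose and 38 fell in QKO ESCs. Either direction counted, these shares were close to the 66.7% and 69.9% of all genes. The list medians were -0.34 and -0.15, against 0.01 and 0.02 over all genes. In J2KO ESCs 27 rose and 22 fell, and in Pcgf24KO EpiLCs 12 rose and 17 fell. Without replicate 1 of PclWT EpiLCs, 17 rose and 40 fell in TKO EpiLCs (median -0.25) and 24 rose and 33 fell in QKO EpiLCs (median -0.10). With it the medians were -0.57 and -0.50, with 26 and 25 genes lower. Among all genes 66.4% passed in each of these comparisons without that replicate, and 33.5% and 32.7% with it. Of 23 tested genes of mitochondrial transcription and RNA handling, 6 rose and 12 fell in Pcgf24KO EpiLCs. In J2KO ESCs 6 rose and 4 fell, and in TKO ESCs 3 rose and 7 fell. Among all genes 56.9% passed in Pcgf24KO EpiLCs, 70.9% in J2KO ESCs and 66.7% in TKO ESCs. Both ESC counts of this list lay below these shares. Tefm, the mitochondrial transcription elongation factor, fell by 1.76 in TKO ESCs and 1.52 in QKO ESCs, and it rose by 0.42 in J2KO ESCs and 0.61 in J2KO EpiLCs. Pnpt1, a mitochondrial RNA-degrading enzyme, and Elac2, which trims the tRNAs between messages, rose by 0.66 and 0.81 in J2KO ESCs and fell by 0.75 and 0.58 in TKO ESCs. Grsf1, a protein of mitochondrial RNA granules, fell by 1.13 in J2KO ESCs.

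Of 12 tested genes of mitochondrial DNA maintenance, 6 rose and 3 fell in J2KO ESCs, 4 rose and 2 fell in TKO ESCs, and 6 rose and 4 fell in Pcgf24KO EpiLCs. Of all genes 70.9%, 66.7% and 56.9% passed in these comparisons, and the counts of so short a list show no clear excess over them. Twnk, the mitochondrial helicase, fell in the Polycomb-like mutants, by 0.56 in TKO ESCs and 0.36 in QKO ESCs. Among 10 tested regulators of biogenesis, 6 rose in J2KO ESCs and the rest did not pass, and in Pcgf24KO EpiLCs 2 rose and 6 fell. Lin28b, an RNA-binding protein, rose by 2.83 and the coactivator Ppargc1b by 1.34 in J2KO ESCs. Of 17 genes of the tricarboxylic acid cycle, 5 rose and 10 fell in J2KO ESCs and 7 rose and 5 fell in Pcgf24KO EpiLCs. Of other assembly factors and cytochrome c, 7 rose and 19 fell of 31 in TKO ESCs. Glycolysis genes, of which 19 were tested because Aldoa is annotated under 2 identifiers, rose more often than they fell in every genotype comparison. In Pcgf24KO EpiLCs 17 rose (median 0.43) and in TKO ESCs 16 rose (median 0.54), and the others there did not pass. In QKO ESCs 14 rose and 1 fell (median 0.38), in J2KO EpiLCs 11 rose and 2 fell, and in J2KO ESCs 9 rose and 7 fell. In TKO EpiLCs 6 rose and 2 fell, or 16 and 2 without replicate 1 of PclWT EpiLCs. In QKO EpiLCs 5 rose and 1 fell, or 13 and 2 without it. Either direction counted, 69.9% of all genes passed in QKO ESCs and 65.2% in J2KO EpiLCs, close to the share of the list in J2KO EpiLCs. The shares of all genes were 33.5% in TKO and 32.7% in QKO EpiLCs, and 66.4% in each without that replicate. The glucose transporter Slc2a3 rose by 1.21 in Pcgf24KO EpiLCs and 1.32 in TKO ESCs.

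Nuclear respiratory genes are known targets of the factors NRF1, GABPA and YY1. Promoters from RefSeq (GRCm38.p6, 250 bases before to 50 after the start) were found for 78 of 97 nuclear symbols, and each motif was searched on both strands. The NRF1 motif, a palindrome of GCGCA followed directly by TGCGC, occurred in 7 of them (8.97%), against 0.977% of 27025 promoters. The YY1 motif AAGATGGCG also occurred in 7 (8.97%, against 1.49%), and the GABPA motif CCGGAAGT in 5 (6.41%, against 4%). The NRF1 sites are shown with 10 flanking bases on each side, on the gene's strand and with the motif in capitals, because this motif had the largest share relative to all promoters.
Atp5g2 (chr15:102671070-102671099, minus strand): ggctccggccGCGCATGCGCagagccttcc
Cox6a1 (chr5:115349101-115349130, minus strand): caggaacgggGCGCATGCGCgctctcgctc
Ndufa11 (chr17:56717692-56717721, plus strand): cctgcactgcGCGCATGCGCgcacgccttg
Ndufaf4 (chr4:24897960-24897989, plus strand): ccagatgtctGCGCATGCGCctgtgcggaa
Uqcrc1 (chr9:108936668-108936697, plus strand): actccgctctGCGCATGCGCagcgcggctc
The others were Atp5k and Ndufaf5. Such a match is a description of the letters and does not show that the factor binds. The members that carry it did not share a direction. Ndufaf4 fell by 0.87 in TKO ESCs, whereas Atp5g2 rose by 0.36, and Cox6a1 had a log2 fold change of 0.11 (adjusted p = 0.119).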

How the data were processed

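Poly(A) RNA from the 36 libraries was sequenced on an Illumina NextSeq after non-directional library preparation. The molecule and library source labels of the 6 WT and Pcgf24KO EpiLC samples read genomic, although their titles say RNA. The deposited files hold read counts per gene that the authors made with STAR on the Ensembl GRCm38 annotation, counting only reads with 1 mapping position. Unstranded counts were used here. Reads of 75 bases are stated for the 6 libraries of the Pcgf set, and that length was used for the shared-sequence check. The authors used DESeq2.

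Here counts were tested with edgeR 4.0.16 (R 4.3.3, limma 3.58.1) by TMM scaling and the quasi-likelihood test, in a fit of the groups compared, over every gene whose normalized counts averaged 15 or more. P-values were adjusted by Benjamini and Hochberg over all tested genes, and a gene passed at an adjusted p under 0.05. CPM and RPKM use TMM-scaled library sizes. Tables were written with Python 3.11.15 and pandas 2.3.3. Members and lists were chosen with earlier results of these data known. Named genes were the mitochondrial members, up to 8 nuclear members per comparison with the largest change among those that passed without overlap, members with paralogs, examples of a role, and up to 4 genes of a list per comparison. A member that this rule names is not reported here.

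Alternatives were DESeq2 1.42.0, RLE scaling, scaling on nuclear genes, other count filters (none, or a mean of 50), protein-coding genes only, a fold change above 2, a replicate block, each wild-type line alone and leaving out each library. On simulated data the fit recovered 97% of genes changed by 0.5 (log2) for J2KO EpiLCs (13788 genes), 13% for the wild-type stage comparison (13530) and 2% for QKO EpiLCs (12856). At a change of 1 it recovered 100%, 78% and 58%.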

Additional observations from a re-analysis of the deposited data

Results flagged for a closer look

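Effects that differed between stages or lines by a test of the difference itself (edgeR's quasi-likelihood test of an interaction) are listed here as values. Groups of 3 libraries were not tested for single outlying samples.

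The stage effect of PclWT minus that of J2WT passed for 13 of 100 members, where 42.8% of all genes passed. It was 0.94 for mt-Nd4, 0.95 for mt-Nd6, 0.98 for mt-Cytb and 0.61 for mt-Co1. It was 1.93 for Cox7b2, which has few counts in PclWT cells, and 1.80 for Cox6b2.

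The J2KO effect in EpiLCs minus that in ESCs passed for 53 of 99 members, where 54.1% of all genes passed. It was -0.56 for mt-Nd1, -0.41 for mt-Nd2, -0.60 for mt-Nd4, -0.36 for mt-Nd5, -0.88 for mt-Cytb and -0.39 for mt-Co1. It was -1.11 for Ndufa4l2 and 0.91 for Cox7b2.

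The TKO effect in EpiLCs minus that in ESCs passed for 5 of 98 members, where 15.3% of all genes passed. These were mt-Nd1 (-0.93), mt-Nd2 (-0.86), mt-Nd4 (-0.97), mt-Nd6 (-1.11) and mt-Cytb (-1.13). The QKO effect passed for 1 of 98 members, mt-Cytb (-0.96), where 16.2% of all genes passed. Both effects use the same PclWT libraries, so they are not separate evidence.

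The pseudogene Gm28438 held 3198 counts and the processed copy BC002163 held 3275 counts in the 18 libraries of the J2WT, J2KO, WT and Pcgf24KO lines, against 29 and 65 counts in the 18 libraries of the PclWT, TKO and QKO lines.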

How the results depend on the processing

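No called value reversed under any alternative. Of 167 named calls, 156 kept their side of the threshold with DESeq2, 164 with RLE scaling, 167 with scaling on nuclear genes and 154 with a replicate block. Of 11 named stage calls only 1 kept its side in PclWT libraries alone, and 4 did with a replicate block there, against 12 of 12 in J2WT libraries alone. Calls stayed for 1102 of 1235 values with 1 library left out. Of the member counts the replicate block moved 2, to 8 instead of 14 in QKO EpiLCs and to 2 instead of 1 for the QKO stage difference, beyond 1.5 times. Same-numbered libraries did not deviate together in every pair of groups (correlations of -0.039, 0.009 and -0.018 for the J2WT stages), so the numbers were not taken to pair samples. In PclWT cells they were 0.382, 0.193 and 0.166, but replicate 2 correlated better with another number (0.199).

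Library choice mattered most for PclWT EpiLCs. Passing members ranged from 14 to 69 for EpiLCs against ESCs, from 9 to 52 for the difference between the wild-type lines, from 5 to 57 for TKO EpiLCs, from 5 to 61 for QKO EpiLCs, from 5 to 20 for the TKO stage difference and from 1 to 19 for the QKO one. Every high value came from leaving out PclWT EpiLC replicate 1, and the lowest values of TKO and QKO EpiLCs came from leaving out a library of the mutant (5, 5 and 6 for TKO replicates 1, 2 and 3, and 5, 5 and 7 for QKO). The share of all genes also rose without that PclWT replicate. It went from 51.7% to 62.7% for EpiLCs against ESCs and from 42.8% to 65% for the line difference. For TKO and QKO EpiLCs it went from 33.5% and 32.7% to 66.4%, and for their stage differences from 15.3% to 35.5% and from 16.2% to 37%. Shares for the other left-out libraries are not given here. The TKO stage difference gave 8 without PclWT EpiLC replicate 2 or 3, and the QKO one gave 4, 3 and 2 without PclWT EpiLC replicate 2, QKO ESC replicate 2 and QKO EpiLC replicate 3. The cause was not tested. EpiLCs against ESCs gave 75 in J2WT alone and 5 in PclWT alone, or 8 there with a replicate block, a fit chosen after seeing the data. The shares of all genes in these single-line fits are not given here.

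Without a count filter 32 members passed in TKO EpiLCs, 29 in the TKO stage difference and 14 in the QKO one, where DESeq2 gave 4, RLE scaling 2 and protein-coding genes alone 2. The cause was not tested. A fold change above 2 left 2 members for EpiLCs against ESCs, 3 for the line difference, 3, 2 and 1 for J2KO, TKO and QKO ESCs, 0, 6 and 5 for J2KO, TKO and QKO EpiLCs, 3 for Pcgf24KO EpiLCs, and 1, 2 and 0 for the J2KO, TKO and QKO stage differences. At an unadjusted p under 0.05, with no demand on the fold, 59 members passed in J2KO EpiLCs and 9 in the QKO stage difference. DESeq2 at an adjusted p under 0.05 gave 48 and 4. The shares of all genes under the settings of this paragraph are not given here, so these counts do not set the members apart.

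With equal weight per gene the ratio difference was 0.39 in J2KO ESCs, -0.14 in TKO EpiLCs, -0.31 in QKO EpiLCs and -0.34 in Pcgf24KO EpiLCs. By construction the 6 uncounted mitochondrial genes then weigh as much as the counted ones. Depth limits Cox4i2, Cox7b2, Cox8c and Ndufa4l2 in lines where they have few counts.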
